A study of Homo sapiens with 2 samples.

Results

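The genes described here are the actin isoforms and the transcription factors that read actin: ACTA2, ACTC1, ACTG2, ACTB, ACTG1, SRF, MRTFA and MRTFB. Their probe sets were taken from the deposited array table wherever the platform annotation gave a member as the only gene symbol, which found 21 of 54613 probe sets, for 7 of the 8 members and of 19775 named genes. ACTG1 had no such probe set: all 9 probe sets that list it also list ACTB. The samples were hTERT-RPE1 cells, a telomerase-immortalised human retinal pigment epithelial line, grown in medium with 10% serum and hygromycin B and transfected for 72 h, using the lipid reagent RNAiMAX, with an oligo that was either a control or miR-129-3p. Each group held 1 Affymetrix array, so no difference has a replicate error, no test was possible and a difference compares these 2 arrays. The study asked how miR-129-3p acts on cilium assembly through CP110 and actin.

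Actin is made as several near-identical proteins. ACTB and ACTG1 encode the cytoplasmic beta and gamma actins found in nearly every cell, ACTA2 and ACTG2 the actins of smooth muscle, and ACTC1 the actin of heart muscle. SRF (serum response factor) is a transcription factor that binds the CArG box in the promoters of many actin and cytoskeletal genes, its own included. Its coactivators MRTFA and MRTFB bind monomeric actin and are held in the cytoplasm by it. When actin polymerises they are released, enter the nucleus and activate SRF, and a separate family of SRF partners, the ternary complex factors, serves growth factor signals instead.

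The oligo is shown first, because it names the groups. RefSeq (GRCh38.p14) holds 2 mature human forms, from MIR129-1 at chr7:128207920-128207941 and MIR129-2 at chr11:43581450-43581471, both on the plus strand, and the labels do not say which was used. Capitals mark the seed, bases 2 to 8, which the forms share.
hsa-miR-129-1-3p: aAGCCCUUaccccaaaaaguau
hsa-miR-129-2-3p: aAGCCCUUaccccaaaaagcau
Matches to this seed in the members' transcripts were not analysed here.

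Promoter windows are shown for the actin genes and SRF because actin promoters and that of SRF are known targets of SRF. A window runs from 250 bases before to 50 bases after a RefSeq start, and the table used held 16 windows for 7 of the 8 members. ACTB was not searched. The CArG box was searched as CC, then 6 letters that are A or T, then GG, a pattern that reads the same on both strands; capitals mark its matches. The ACTC1 window is chr15:34795500-34795799, minus strand, with 1 match from -109 to -100 relative to the start. The ACTG2 window is chr2:73892758-73893057, plus strand, with matches from -110 to -101 and from -73 to -64. The SRF window is chr6:43171019-43171318, plus strand, with matches from -30 to -21 and from -10 to -1. The ACTG1 window is chr17:81512750-81513049, minus strand, with 1 match from -94 to -85. ACTA2 had no exact match in its 2 windows. The window printed for it, chr10:88952724-88953023 on the minus strand, held 2 matches with 1 mismatch, from -121 to -112 and from -71 to -62, and these are in capitals. With up to 1 mismatch allowed, the printed windows of ACTC1, ACTG2 and SRF held 4, 3 and 3 matches. In those windows only the exact ones are in capitals. The windows at other starts of ACTC1 and SRF held no exact match, and 1 of those of ACTC1 held 1 match with 1 mismatch.
ACTA2: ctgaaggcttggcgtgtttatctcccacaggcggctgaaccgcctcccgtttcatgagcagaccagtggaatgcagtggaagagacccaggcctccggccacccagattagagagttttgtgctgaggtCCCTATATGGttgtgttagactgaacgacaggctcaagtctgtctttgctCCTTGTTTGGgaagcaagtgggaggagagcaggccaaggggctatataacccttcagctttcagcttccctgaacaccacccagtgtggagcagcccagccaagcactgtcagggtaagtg
ACTC1: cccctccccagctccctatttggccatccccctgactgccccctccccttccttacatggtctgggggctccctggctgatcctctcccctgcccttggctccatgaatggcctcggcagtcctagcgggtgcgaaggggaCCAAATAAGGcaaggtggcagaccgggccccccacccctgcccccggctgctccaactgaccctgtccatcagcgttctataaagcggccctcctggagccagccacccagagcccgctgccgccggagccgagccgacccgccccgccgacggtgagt
ACTG2: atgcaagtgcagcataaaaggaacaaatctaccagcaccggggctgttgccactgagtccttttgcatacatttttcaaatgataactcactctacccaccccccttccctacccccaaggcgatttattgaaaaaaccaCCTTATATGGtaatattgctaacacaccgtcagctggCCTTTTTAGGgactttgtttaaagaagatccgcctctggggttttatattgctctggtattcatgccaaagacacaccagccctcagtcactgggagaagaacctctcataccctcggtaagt
ACTG1: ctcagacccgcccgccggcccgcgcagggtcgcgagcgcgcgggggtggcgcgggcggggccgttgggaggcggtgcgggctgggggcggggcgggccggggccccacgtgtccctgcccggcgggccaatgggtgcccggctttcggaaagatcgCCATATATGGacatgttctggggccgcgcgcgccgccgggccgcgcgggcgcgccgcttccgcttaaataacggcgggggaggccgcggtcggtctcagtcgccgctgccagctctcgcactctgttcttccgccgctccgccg
SRF: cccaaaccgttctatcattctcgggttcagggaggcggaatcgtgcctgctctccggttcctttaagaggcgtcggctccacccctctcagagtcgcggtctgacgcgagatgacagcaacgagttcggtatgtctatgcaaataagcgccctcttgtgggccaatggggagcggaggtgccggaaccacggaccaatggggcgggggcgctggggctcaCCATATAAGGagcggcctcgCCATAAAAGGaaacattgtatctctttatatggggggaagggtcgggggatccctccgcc
An exact CArG box stood in at least 1 window of 4 of these 7 members, against 438 of 27305 genes (1.60%) and 454 of 35116 windows (1.29%) overall. With 1 mismatch allowed it stood in 5 of the 7, against 22.3% of genes. None of the 3 MRTFA windows and none of the 4 MRTFB windows held it, with or without the mismatch. A match describes letters and is not a measured binding site. Actin and SRF promoters were known SRF targets before the search, so the share among the members describes them and supports nothing further.

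**Figure D1:**
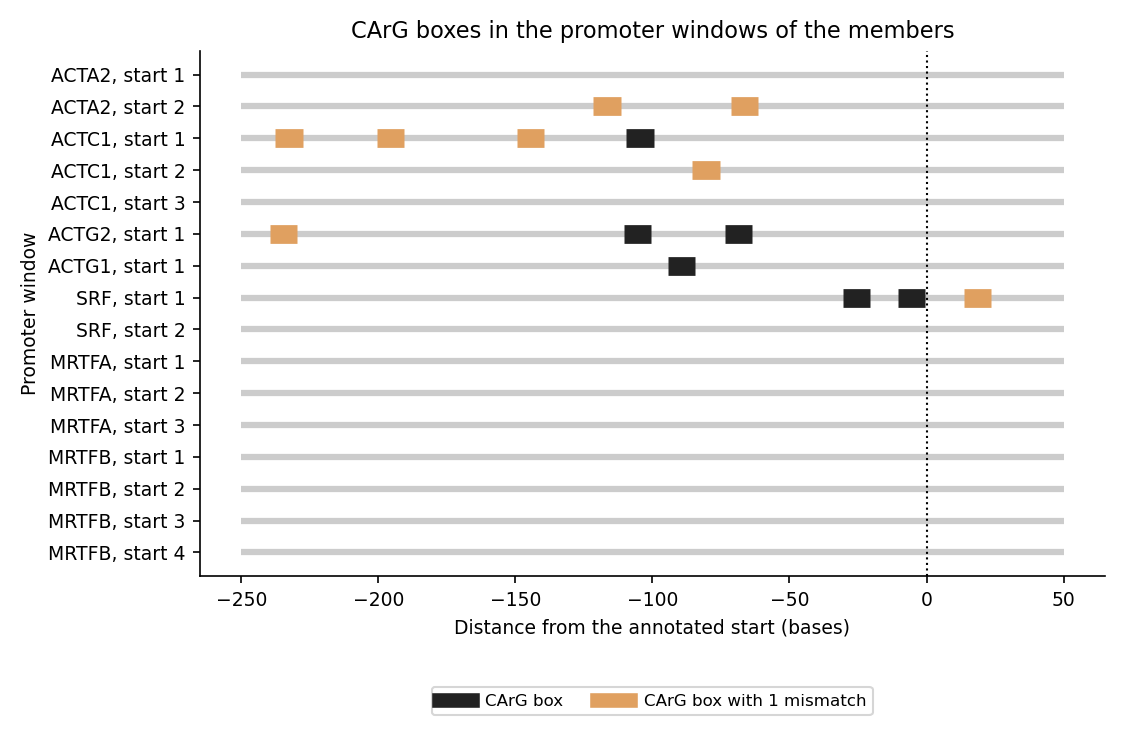
CArG boxes in the 16 promoter windows of 7 members. The horizontal axis is the distance from the annotated start in bases, each grey line is a window, black blocks are exact matches and orange blocks matches with 1 mismatch. ACTC1, ACTG2, ACTG1 and SRF have exact matches. ACTC1, ACTG2 and SRF also have matches with 1 mismatch, ACTA2 has only such matches (2), and the MRTFA and MRTFB windows are empty.

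Values are the deposited signals of the control array and of the miR-129-3p array, in that order. A difference is miR-129-3p minus control of log2(signal + 16), which understates differences of dim genes. A gene was read from its probe set of highest mean level, and counts took in genes whose higher signal was at least 100, called the filter below. The control and miR-129-3p arrays had median signals of 96.5 and 98.0, and the median difference of the 12754 genes above the filter was 0.03. The only measure of error at hand is how far probe sets of the same gene disagree: over 6179 genes with several above the filter, the pooled SD of their differences was 0.37. Spread between cultures is not part of it. Levels of different probe sets depend on their probes, so no order of levels between genes is given.

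The muscle-type actins and SRF had lower signals on the miR-129-3p array, by 2.27-fold to 8.25-fold on this scale, ACTB had a smaller lower signal, and neither MRTF gene passed 1.5-fold. At 1.5-fold, 5 of the 7 measured members were lower and 0 were higher, where 10.8% of all 12754 genes were lower and 17.3% higher. Of the 13 member probe sets above the filter, 8 were at least 1.5-fold lower and 0 higher. Among all 23707 named probe sets above it, 11.1% were lower and 16.7% higher. The 13 come from 21 member probe sets, and 2 of the 13 passed through the control array alone. In RNA from a whole culture, fewer cells that express a gene and less RNA per cell cannot be told apart.

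ACTC1, cardiac alpha actin, had the largest difference of the members. Its single probe set read 1290 and 142, a difference of -3.04. The gene was clearly above the filter in control cells and near it with miR-129-3p. Of the 12754 genes, 26 had a difference this low or lower, ACTC1 included.

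ACTA2, smooth muscle alpha actin and a common mark of contractile cells, read 11066 and 2187 on its brightest probe set, a difference of -2.33. A second probe set read 279 and 48.9, a difference of -2.18. It passed the filter through the control array alone, and the size of its difference depends on how dim signals are treated: it was -1.35 with signals under 100 set to 100 and -1.60 with an added constant of 64. The third, at 31.4 and 29.0, was dim on both arrays and differed by -0.07.

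ACTG2, smooth muscle gamma actin, read 619 and 130 on its brighter probe set, a difference of -2.12. Its other probe set stayed under the filter, at 74.2 and 60.8 (difference -0.23). The call for ACTG2 therefore rests on a single probe set, as it does for ACTC1 and, below, for SRF. ACTA1, skeletal alpha actin and no member, was dim on both arrays, at 27.7 and 21.2; it was named after its values were seen.

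ACTB, cytoplasmic beta actin and a usual loading control, was read by 3 probe sets. They gave 18051 and 11800, 17015 and 10678, and 16932 and 10835. All 3 were lower with miR-129-3p, by -0.61, -0.67 and -0.64, a range narrower than the pooled SD. These differences lie close to the limit of 1.5-fold, which is 0.58 on the log2 scale: ACTB was at -0.49 after subtraction of a loess trend and after quantile normalization, still lower but no longer past it. The arrays ran up to 20822 and 19952, so ACTB sat near the top of the scale. The other 20 named probe sets with a control signal as high as the dimmest of the 3 had differences of -0.29 to 0.04, and 0 of them were 1.5-fold lower. The 20 leave out the 9 probe sets that list both ACTG1 and ACTB, which were as bright and had differences of -0.90 to -0.62. The suffix of the 3 ACTB probe sets marks probes that can also bind related transcripts, so reads of ACTB and of other actins cannot be fully separated.

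**Figure D2:**
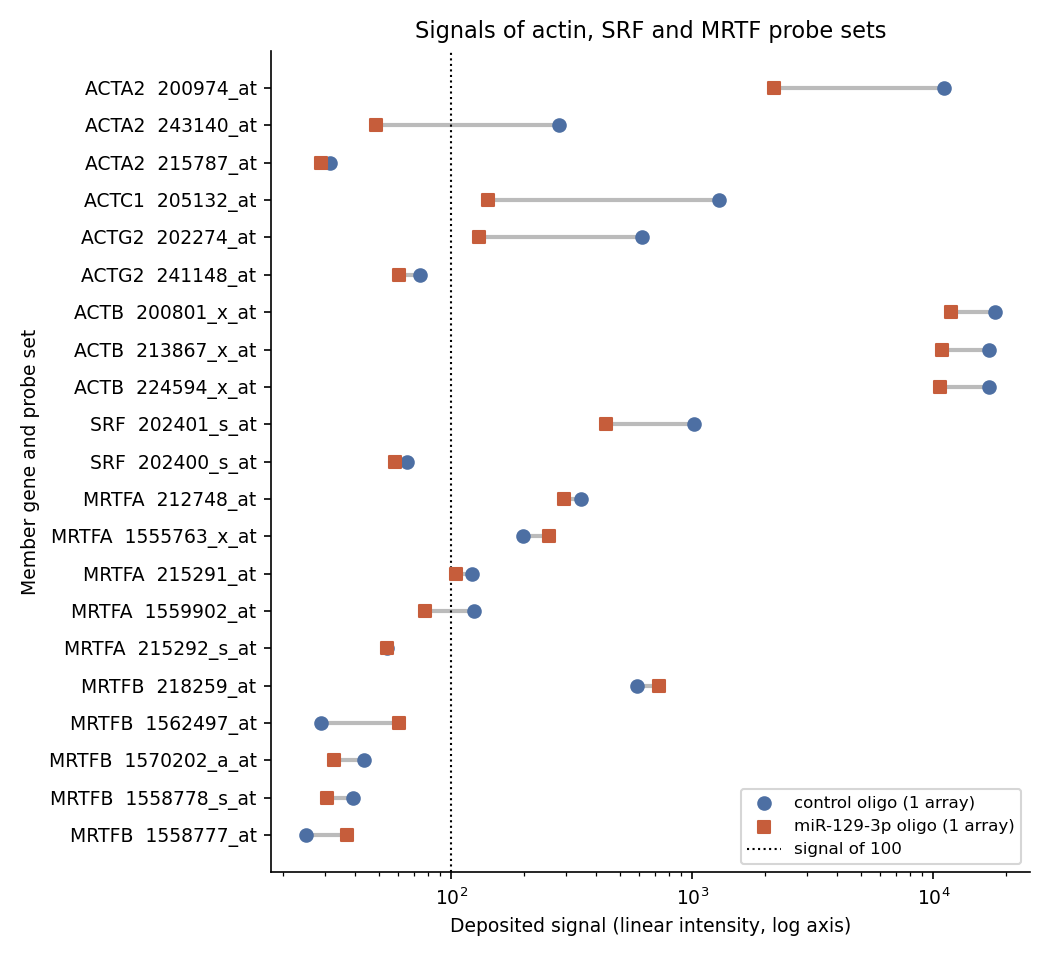
Deposited signals of the 21 member probe sets on the control array (blue circles) and the miR-129-3p array (red squares), on a log axis, with 1 array per group and a dotted line at a signal of 100. On the brightest probe set of each gene, the pairs of ACTC1, ACTA2, ACTG2 and SRF are spread widest, that of ACTB less, and those of MRTFB and MRTFA least. Among the dimmer pairs, an ACTA2 probe set at 279 and 48.9 is spread widest, and a MRTFB probe set at 28.8 and 61.1 is also wide.

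SRF itself was lower. Its brighter probe set read 1016 and 438, a difference of -1.18 (2.27-fold). Its other probe set was dim, at 65.5 and 58.7, and differed by -0.13. The mean of both probe sets was -0.65, which is past 1.5-fold but not 2-fold.

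The MRTF coactivators had the smallest differences, in opposite directions. MRTFA, also called MKL1, read 345 and 294 on its brightest probe set, a difference of -0.22. Its other probe sets above the filter read 199 and 255, 125 and 78.2, and 122 and 105, with differences of 0.34, -0.58 and -0.20. Of the 4, 3 were below 0, 1 was above and 0 passed 1.5-fold. The probe set at 125 and 78.2 passed the filter through the control array alone and lay just short of the limit. It was at -0.67 with an added constant of 1 and at -0.61 after quantile normalization, both past the limit. With signals under 100 set to 100 it was at -0.28. The remaining MRTFA probe set, at 54.4 on both arrays, was under the filter.

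MRTFB, also called MKL2, read 591 and 729 on its brightest probe set, a difference of 0.30. The other 4 probe sets stayed between 24.9 and 61.1 on both arrays, with differences of -0.29 to 0.78. The largest of these, from 28.8 to 61.1, was a dim probe set and was 0 with signals under 100 set to 100.

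In order, the differences ran from ACTC1 through ACTA2, ACTG2, SRF, ACTB and MRTFA to MRTFB. A gap between 2 genes has an SD of 0.52 if each carries the pooled spread between probe sets, and 3 of the 6 gaps between neighbours were larger. ACTA2 and ACTG2 differed by 0.21, ACTB and MRTFA by 0.39, and MRTFA and MRTFB by 0.51, all within that spread. The gaps from ACTC1 to ACTA2 (0.71), from ACTG2 to SRF (0.93) and from SRF to ACTB (0.57) were beyond it. A gap past 1 SD can arise from that spread alone, so the order is not settled by it. With all probe sets of a gene averaged, SRF (-0.65) was level with ACTB (-0.64) and its gap to ACTG2 (-1.17) was within that spread, so those gaps rest on the choice of probe set. The difference of SRF minus that of MRTFA was -0.97, and minus that of MRTFB it was -1.48. Set against ACTB in the same way, ACTC1 stood at -2.43 and ACTA2 at -1.72. These are spreads within arrays, so they describe unequal differences between these 2 libraries.

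**Figure D3:**
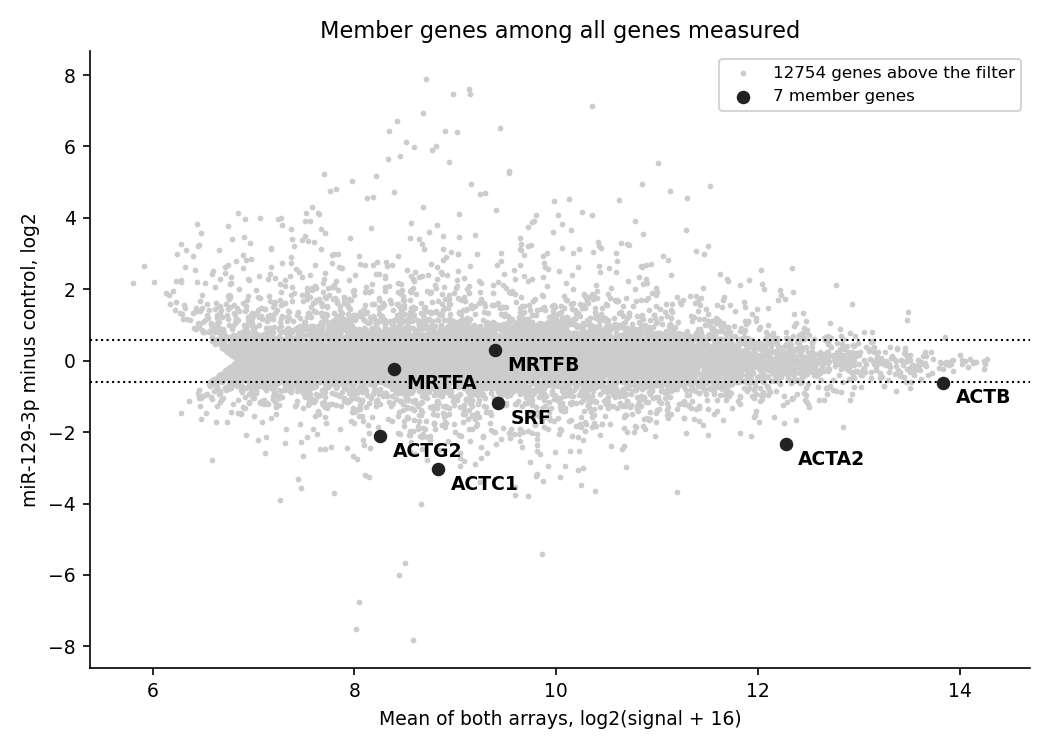
Difference between the arrays (vertical axis, log2) against the mean level (horizontal axis, log2) for 12754 genes above the filter (grey) and the 7 measured members (black); dotted lines mark 1.5-fold. ACTC1, ACTA2 and ACTG2 lie among the lowest points, ACTB is at the right end just below the line, and MRTFA and MRTFB lie between the lines.

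The known targets of SRF with MRTF, a list of contractile and adhesion genes without the members, were mostly lower. Of 26 listed genes 23 were above the filter. Of these, 17 (73.9%) were at least 1.5-fold lower, 1 was higher and 5 were neither. Over all genes, 10.8% were lower and 17.3% higher. The list had a median of -1.46 against 0.03 for all genes. ANKRD1, a nuclear cofactor of stretched muscle, read 2828 and 193 (-3.77), and TAGLN, the actin-bundling transgelin, 8348 and 641 (-3.67). The gene on the higher side was LIMA1, an actin cross-linker also called EPLIN, at 2552 and 3918 (0.62, with 0.49 and 0.51 on its other probe sets). The median difference of the list lay between those of SRF and ACTG2.

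Targets of SRF with ternary complex factors, the immediate early genes, were more mixed. Of 12 above the filter, 4 (33.3%) were lower, 1 higher and 7 neither, with a median of -0.31. Among all genes 10.8% were lower and 17.3% higher. EGR3 read 269 and 45.2 (-2.22), the second signal under 100, and EGR1 read 2217 and 632 (-1.78, with -1.60 and -1.42 on its other probe sets); both are zinc finger transcription factors. MCL1, which encodes an inhibitor of apoptosis, was higher at 5212 and 8401 (0.69). Its other probe sets, at 0.55 to 0.58, did not pass 1.5-fold. With a filter on a mean signal of 200, EGR1 was the 1 lower gene left.

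The partner factors of SRF went both ways. Of 8 above the filter, 2 were lower and 2 higher, with a median of -0.18. Beside these counts, 10.8% of all genes were lower and 17.3% higher. With only 8 genes and no test, the counts are not set apart from those shares. CSRP1, a LIM protein that joins SRF to other factors, read 4601 and 575 (-2.97), and ELK4, a ternary complex factor, 1086 and 585 (-0.87), with its other probe sets at -0.75 to -0.27. KLF4, a zinc finger factor known to repress smooth muscle genes, read 63.2 and 1025 (3.72), and passed the filter through the miR-129-3p array alone. ELK3, another ternary complex factor, read 1970 and 3127 (0.66, and 0.89 on its other probe set). MYOCD, the third MRTF-family coactivator, was dim on both arrays, at 40.8 and 42.2, and was named after its values were seen.

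Proteins listed for binding monomeric actin help set how much of it is free to hold MRTF. Of 13 above the filter, 5 (38.5%) were lower and 0 higher, with a median of -0.25. The shares over all genes were 10.8% lower and 17.3% higher. CORO1C is among the 5 (-0.78), though it is a coronin, a kind of protein that mainly binds actin filaments. CAP2, a cyclase-associated protein, read 3445 and 1382 (-1.31), and CFL2, the muscle cofilin, 2993 and 1665 (-0.84). PFN1, the main profilin, was lower at 6167 and 3442 (-0.84), while the monomer-sequestering thymosins TMSB4X and TMSB10 stood at -0.25 and 0.01. DSTN, the actin-severing destrin at -0.70, counts in this list and among the SRF and MRTF targets. CORO1C, PFN1, the thymosins and DSTN were named after their values were seen.

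In the list of genes that carry the signal from actin to MRTF or move either between cytoplasm and nucleus, 23 were above the filter. Of these, 8 (34.8%) were lower, 1 was higher and 14 were neither, with a median of -0.18. For all genes the shares were 10.8% lower and 17.3% higher. DIAPH3, a formin that polymerises actin, read 2221 and 612 (-1.83), and MICAL2, an enzyme that oxidises nuclear actin and so favours MRTF, 6861 and 2271 (-1.59). Other MICAL2 probe sets ran from -2.10 to -0.28. RHOC, also counted as lower, read 2169 and 1055 (-1.03), but its other probe set above the filter went the other way, at 2.66. This gene was named after its values were seen. PHACTR4, which binds actin through the same kind of repeat as the MRTFs, read 1380 and 2203 (0.67). The transport genes IPO9, XPO6 and XPO1, which carry actin in, actin out and MRTF out of the nucleus, stood at -0.05, 0.11 and -0.02, and were named after their values were seen.

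Genes for folding and finishing actin differed little between the arrays. Of 16 above the filter, 2 were lower, 0 higher and 14 neither (median -0.08): the prefoldin subunit VBP1 read 2452 and 1499 (-0.70), and the chaperonin subunit CCT6A read 2233 and 1466 (-0.60). Of 9 other actins and actin-related proteins above the filter, 1 was lower, ACTR10, a dynactin subunit, at 3248 and 2121 (-0.61), and 1 higher, ACTRT3, at 104 and 195 (0.82). Their median was 0.08. ACTRT3 was near the filter and no longer counted with a filter on a mean signal of 200. Among all genes 17.3% were higher. Both shares of lower genes, 12.5% and 11.1%, are near the 10.8% of all genes. The second share rests on the choice of probe set. ACTR3 counted as neither at -0.40 on its brightest probe set, while its 4 others above the filter stood at -1.14 to -0.68. It was named after its values were seen.

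**Figure D4:**
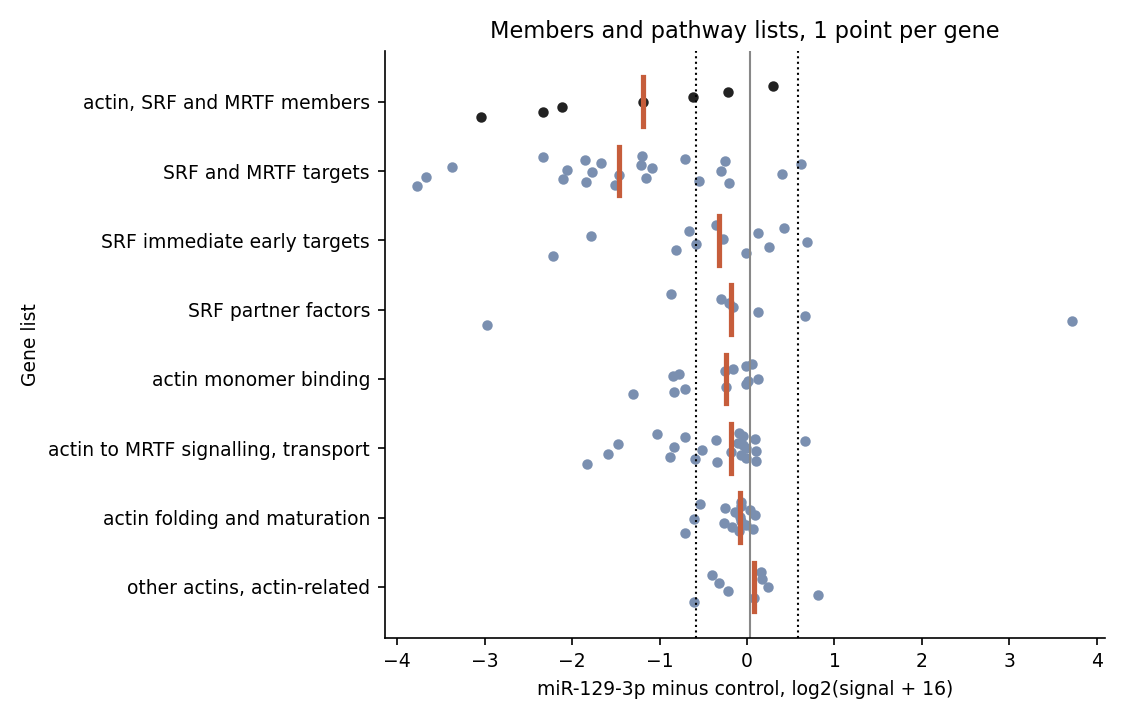
Difference between the arrays (horizontal axis, log2) for the 7 measured members and the genes of 7 pathway lists above the filter, 1 point per gene. Red bars are medians, the grey line is the median of all genes (0.03) and dotted lines mark 1.5-fold; the SRF and MRTF targets have the lowest median of the 7 lists (-1.46).

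**Figure D5:**
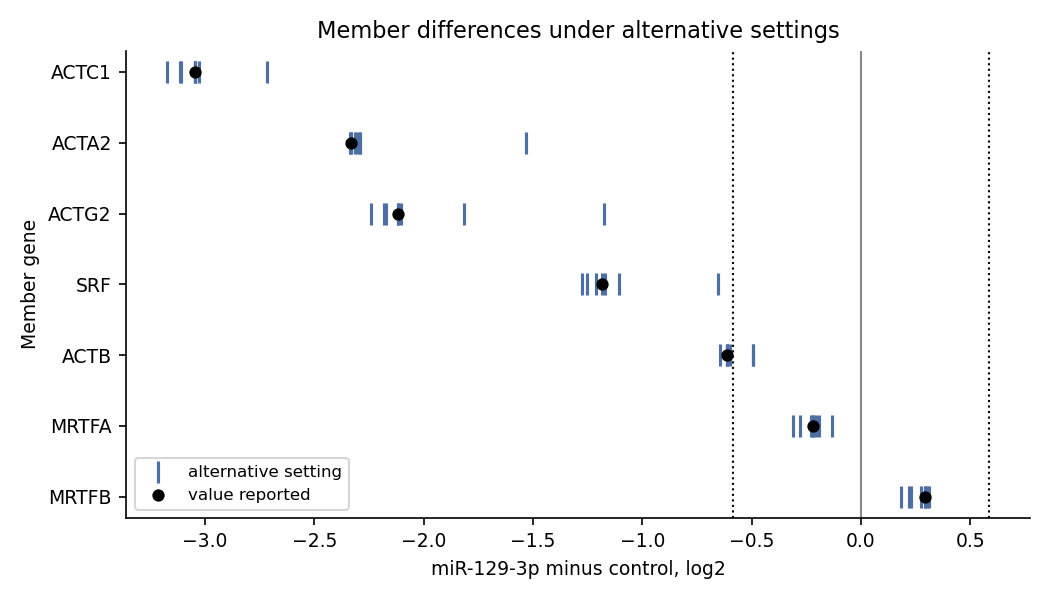
Difference of each measured member (horizontal axis, log2) as reported (black points) and under alternative settings (blue bars); dotted lines mark 1.5-fold. No member changes sign, ACTB crosses the limit, and ACTA2, ACTG2 and SRF come nearest to 0 when all their probe sets are averaged.

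Markers of the labelled cell type and of muscle were read beside these values. Of 9 markers of retinal pigment epithelium, 3 (MITF, OTX2 and PAX6) were above 100 on both arrays, with differences of -1.26, 0.16 and -0.66, and RPE65, RLBP1, BEST1, TYR, TYRP1 and SERPINF1 were under it on both. Of 6 markers of simple epithelium, 4 reached 100 in control and 3 with miR-129-3p. The epithelial keratins KRT8 and KRT18 read 6138 and 4918, and 5787 and 2972, and KRT7 read 1261 and 318 (-1.93). CDH1 read 103 and 89.7, while KRT19 (50.4 and 59.2) and EPCAM (19.6 and 9.86) were under 100 on both arrays. Of 7 smooth muscle markers 5 reached 100 on each array, with summed signals of 2748 and 1246. Most of that difference came from LMOD1 (1498 and 285), which is also in the SRF and MRTF list, while MYH11 (169 and 130) and DES (138 and 134) were low on both. The heart muscle markers summed to 774 and 603 and the skeletal muscle markers to 736 and 630, with 4 of 6 and 4 of 7 at 100 or more in control. Markers of mesenchyme summed to 32430 and 23282, with 5 of 7 at 100 or more on both arrays. Of these, VIM (-0.19) and PDGFRB (-0.23) differed little, while COL1A1 (-1.23), THY1 (-1.26) and DCN (-1.76) were lower beside the actins. Blood markers summed to 306 and 278, with 1 of 4 at 100 or more. No marker was listed at 0. The part of these markers in the differences above was not tested.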

How the data were processed

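The authors deposited 1 linear intensity per probe set and array. Per the submitters' processing notes, MAS5 and RMA were used; which of them gave these intensities, their versions and the scaling between arrays are not given in the sources used here. Groups came from the genotype field of the labels. The annotation gave 1 gene symbol for 41091 of 54613 probe sets, several for 1801 and none for 11721; 41037 of the named probe sets had a gene ID in RefSeq (GRCh38.p14), which gave current symbols. Signals were analysed as log2(signal + 16) with a filter of 100 on the higher array and limits of 1.5-fold. With 1 array per group no test was run and the 2 arrays limit the precision.

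By rule, all members were named on every probe set, and up to 2 genes at each end of a list past 1.5-fold; marker genes and those said to be named after their values were seen fall outside it. The planned search for genes with levels nearest to a member's is not reported, since levels of different probe sets are not comparable. Members and lists were chosen with earlier results of these data known. Alternatives were constants of 64 and 1, median centring, loess (span 0.3), quantile normalization, a floor of 100, the mean of a gene's probe sets, dropping the _x_at and _s_at kinds of probe set, no filter, a mean filter of 200 and a 2-fold limit. Code was tested on simulated data. The tools were pandas 2.3.3 and numpy 2.4.6 under Python 3.11.15, with statsmodels 0.14.6 for loess and figures by matplotlib 3.10.9.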

Additional observations from a re-analysis of the deposited data

How the results depend on the processing

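At gene level no member changed direction under any alternative run, and over these ACTC1 ranged from -3.17 to -2.71, ACTA2 from -2.34 to -1.53, ACTG2 from -2.24 to -1.17, SRF from -1.27 to -0.65, ACTB from -0.64 to -0.49, MRTFA from -0.31 to -0.13 and MRTFB from 0.18 to 0.31. A member or probe set value is called moved past the pooled SD of 0.37, a list median past 0.1 and a count past 1.5 times. Dropping the _x_at and _s_at kinds of probe set left no value for ACTB or SRF. No paired analysis was possible because each group holds 1 array.

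When every probe set of a gene was averaged, dim ones included, ACTA2 was at -1.53, ACTG2 at -1.17 and SRF at -0.65. The median of the SRF and MRTF targets was then -1.30, their count of higher genes 0, that of the immediate early targets 0, the partner factors had 1 lower, the signalling list 2 higher and the other actins 2 lower. An added constant of 64 gave the SRF and MRTF targets a median of -1.36. The monomer-binding list had a median of -0.14 after loess subtraction, -0.11 after quantile normalization and -0.51 without the 2 probe set kinds. Quantile normalization left 0 SRF and MRTF targets higher. Without those kinds, the SRF and MRTF targets and the immediate early targets each had 0 higher, and the partner factors 1 higher and a median of -0.30. With no filter the other actins had a median of -0.074. A mean filter of 200 gave the immediate early targets 1 lower and a median of -0.071, the signalling list a median of -0.34, and the other actins 0 higher and a median of -0.081. At 2-fold, 582 genes were lower and 999 higher. The SRF and MRTF targets then had 0 higher, the immediate early targets 2 lower and 0 higher, the partner factors 1 lower and 1 higher, the monomer-binding list 1 lower, the signalling list 4 lower and 0 higher, the folding list 0 lower, and the other actins 0 lower and 0 higher. The cause of these shifts was not tested.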

Other observations

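The 9 probe sets annotated to both ACTG1 and ACTB entered no comparison, since their signal can be assigned to neither gene. They read 17476 to 20124 in control and 9380 to 12887 with miR-129-3p, with differences of -0.90 to -0.62, all lower on the miR-129-3p array.

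Genes outside the members were also divided by the CArG box in their promoter windows, a division chosen after the data were seen. Of 168 genes above the filter with an exact match, 34 (20.2%) passed 1.5-fold on the lower side and 28 (16.7%) on the higher; their median was -0.07. Of 10164 genes without it, 1068 (10.5%) were lower and 1763 (17.3%) higher, with a median of 0.04. Without the SRF and MRTF targets, 31 of 163 genes with the match (19.0%) were lower. Within those targets 3 of 5 with it were lower, with a median of -1.22, and 11 of 15 without it, with a median of -1.21. These are counts over genes on 2 arrays, and no test was made.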
